A study of Rattus norvegicus with 8 samples.

Results

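The genes of the proteasome were followed in tibialis anterior muscle, mostly of fast fibres, from the shin of adult Sprague-Dawley rats with and without an excess of thyroid hormone. Members were chosen by symbol from the array platform's annotation, as every gene with a probe set of its own whose symbol starts with Psma, Psmb, Psmc, Psmd, Psme, Psmf or Psmg. The rule found 46 genes of 14217 with such a probe set on the array. Of these, 44 encode subunits, activators, an inhibitor or assembly factors of the proteasome. The other 2, Psmc3ip and Psme3ip1, share the prefix but are named for partners of such proteins. All 46 passed the filter on low signal and were among the 10200 genes tested.

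The 4 hyperthyroid rats were injected with T3 (triiodothyronine, the form of the hormone that its receptors bind) into the peritoneum every 2 days over 6 weeks, at 25 µg for each 100 g of rat. Tissue was taken 24 hours past the final injection. The 4 control rats were untreated, and the labels record no vehicle injection for them. Each group held 3 males and 1 female of 200 ± 40 g at the start, and the labels do not tie a sex to an array. Each rat gave 1 Affymetrix array, so a replicate is an animal, and the hyperthyroid replicates are numbered 1, 2, 3 and 5 and the controls 7, 8, 9 and 11. The model is a systemic one, since injected hormone reaches every tissue and not muscle alone.

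The proteasome is the chamber in which cells degrade proteins tagged with ubiquitin. Its core particle is a barrel of alpha rings, which gate the entrance, and beta rings, which hold the proteolytic sites. A regulatory particle caps the barrel, with a base of ATPases that unfold the substrate and a lid that removes its ubiquitin chain. Inflammatory signals exchange the catalytic beta subunits for those of the immunoproteasome and add the 11S activator. In skeletal muscle the ubiquitin-proteasome system carries out much of the breakdown of contractile protein in wasting, and thyroid hormone excess is known clinically for loss of muscle.

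The dissected muscle was checked by its markers. All 10 skeletal muscle markers were measured, none below an intensity of 4266 on any array. They were not even between the groups: 9 of 10 had a log2 fold change below 0 (median -0.36, lower in hyperthyroid muscle), 6 had an unadjusted limma p under 0.05, and 4 (Ckm, Acta1, Tnnt3 and Atp2a1) had groups that did not overlap. Over all genes tested, 10.6% reached that unadjusted p (5.21% lower), and 6.55% had groups that did not overlap (3.21% lower). None of the 10 markers passed an adjusted p of 0.05, and the part of their shift in the proteasome values was not tested. Of the 12 macrophage and leukocyte markers 8 passed the filter, 4 above and 4 below 0. Among them Cd14 alone had an unadjusted limma p under 0.05 (98.9 ± 21.8 in hyperthyroid against 46.3 ± 49.9 in control muscle, SD, n = 4 each). Its limma adjusted p was 0.436. Ptprc, Itgam, Cd3e and Cd52 did not pass the filter, while Cd74 ran from 232 to 815 and Lyz2 from 208 to 918. All 5 fibroblast markers passed and lay above 0, none with an unadjusted p under 0.05, and they varied widely between animals (Col1a2 from 412 to 11787, highest on hyperthyroid replicate 5). All 4 smooth muscle markers lay below 0 (median -0.60), with only Tagln under that p (173 ± 25.1 against 317 ± 121, SD, n = 4 each, limma adjusted p = 0.306). Of the adipocyte, endothelial and Schwann cell markers measured, 3 of 4, 2 of 4 and 1 of 3 lay above 0, none under that p. All 6 slow-fibre markers measured were lower in hyperthyroid muscle (median log2 fold change -3.33), each with an unadjusted limma p under 0.05. None of the 6 passed an adjusted p of 0.05, and their groups overlapped. These markers stood apart on control replicates 7 and 11. Myh7, the slow myosin heavy chain, was at 5570 and 2692 there and between 5.83 and 169 on the other 6 arrays. In whole muscle, fewer cells of a type and less RNA per cell cannot be told apart.

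By the brightest probe set of each gene, proteasome transcripts differed little between the groups, while some dimmer probe sets, given below, differed more. Each gene was represented by its brightest probe set, as log2(intensity + 3.41), and tested with limma, adjusted over all genes by the Benjamini-Hochberg method. None of the 44 genes passed an adjusted p of 0.05, against 7 of all 10200 genes, or 0.0686%. The smallest adjusted p among the 44 was 0.441. An unadjusted p under 0.05 was reached by 2 of the 44 (4.55%), Psmb5 and Psmf1, both higher in the hyperthyroid group. Over all genes tested 10.6% did so, 5.38% higher and 5.21% lower.

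For these brightest probe sets the intervals were narrow. Across the 44 genes the fold change on this scale ran from 0.811 for Psmc4 to 1.44 for Psmf1. The 95% interval of 43 genes lay wholly within a 2-fold change in either direction, as it did for 59.3% of all genes. The exception was Psmf1, whose upper bound was 2.05-fold. For 35 genes the interval lay within 1.5-fold, against 23.8% of all genes. The direction was mixed: 28 of the 44 lay above 0 and 16 below, with a median log2 fold change of 0.09, against -0.00029 over all genes. These are bright genes, with a median level percentile of 91.1 and 24 of the 44 among the 1020 brightest of the 10200, and bright genes have smaller errors here. The median size of the difference, whatever its sign, was 0.13 log2 units in the proteasome. It was 0.24 over all genes and 0.17 over those 1020.

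**Figure D1:**
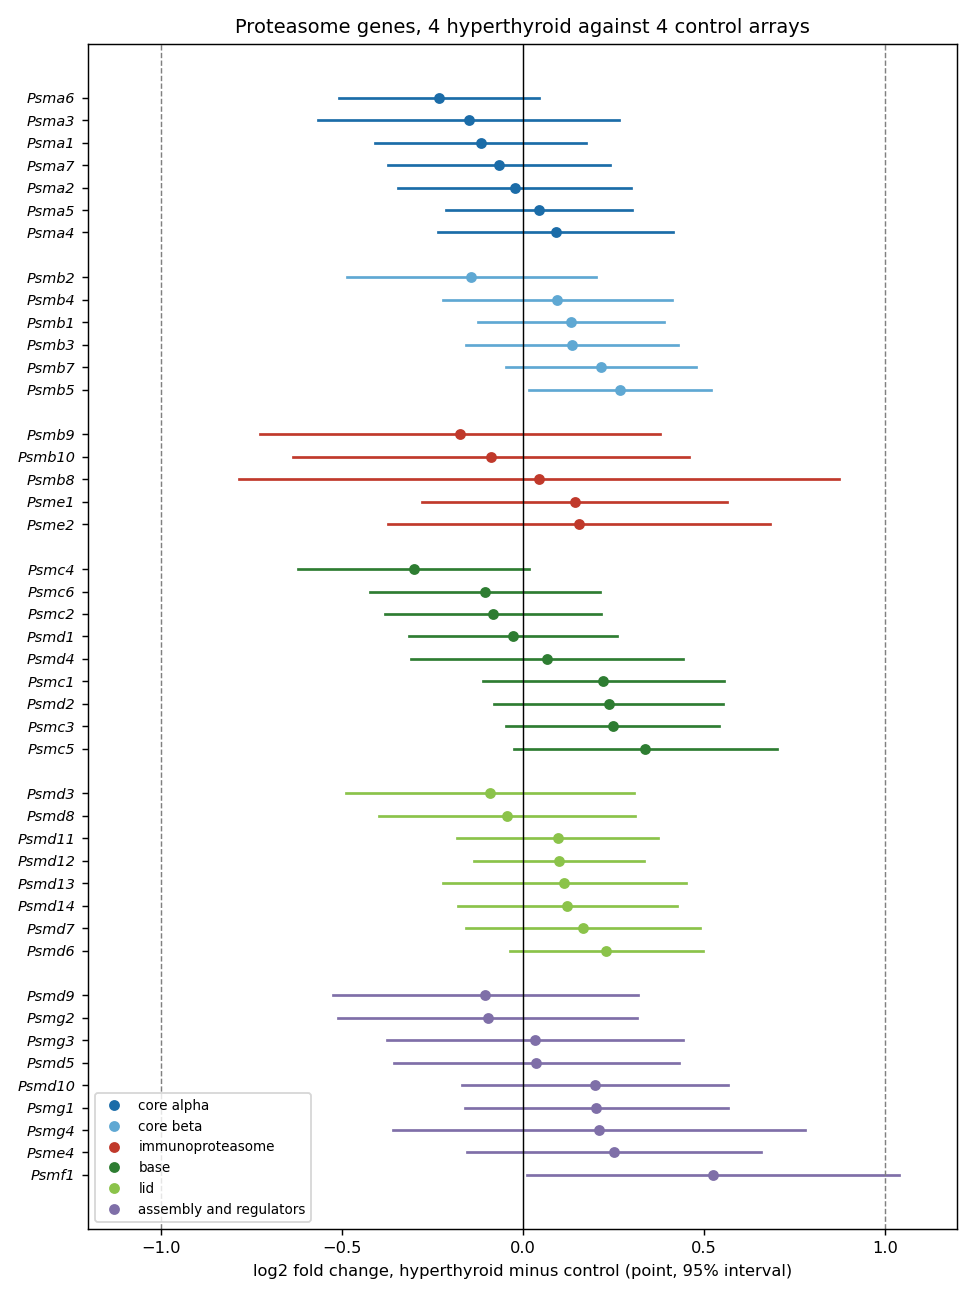
Log2 fold change of each of the 44 proteasome genes (horizontal axis, hyperthyroid minus control, 4 arrays each), with lines for the limma 95% interval, grouped and coloured by part of the complex. The dashed lines mark a 2-fold change; every point lies between the values of Psmc4 and Psmf1, and only the upper end of Psmf1 passes a dashed line.

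The 24 proteasome genes among the 1020 brightest varied between animals as other bright genes did. The median SD within groups was 0.211 log2 units over the 44 genes. For those 24 it was 0.201, as it was over all 1020, and 12 of the 24 lay below that value. Over the 6525 genes in the level range of the 44, a comparison not matched gene by gene for level, it was 0.288. Of the 44, 36 lay below that. The highest array exceeded the lowest by between 1.18-fold (Psmd12, a lid subunit) and 3.72-fold (Psmb8, an immunoproteasome subunit), with a median of 1.54-fold.

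The alpha subunits form the outer rings and the gate of the core. None of the 7 measured reached an unadjusted p of 0.05. Their median log2 fold change was -0.07, with 5 below 0 and 2 above. The median turned to 0.046 without hyperthyroid replicate 2. Psma6 had the lowest value, with intensities of 6783, 6034, 8099 and 7217 on hyperthyroid replicates 1, 2, 3 and 5 and of 7023, 8456, 8563 and 8945 on control replicates 7, 8, 9 and 11. The 3 highest arrays were controls, but control replicate 7 lay within the hyperthyroid range. The log2 fold change was -0.23 ± 0.13 (SE, limma adjusted p = 0.56). Psma4 had the highest value of this ring, 0.09 ± 0.15, with 1151 ± 178 in hyperthyroid and 1076 ± 125 in control muscle (SD, n = 4 each). Psma5 varied by no more than 1.23-fold across the 8 arrays, at 1482 ± 121 and 1435 ± 87.0 (SD, n = 4 each). Psma3 had 341 on hyperthyroid replicate 1 and 458 to 658 on the other 7 arrays.

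The beta subunits form the inner rings of the core. Of the 6 with a constitutive role, 5 lay above 0, with a median of 0.13. Psmb5 carries the chymotrypsin-like site, the one that proteasome inhibitors used as drugs chiefly block. Its intensities were 4239, 3405, 3684 and 3398 on hyperthyroid replicates 1, 2, 3 and 5 and 3201, 3166, 2928 and 2891 on the 4 controls. All hyperthyroid arrays lay above all controls, and it was the only one of the 44 genes whose groups did not overlap, against 6.55% of all genes tested (3.34% higher and 3.21% lower). The margin was narrow, 3398 against 3201. The fold change was 1.205 with a 95% interval of 1.01 to 1.43 (limma unadjusted p = 0.0383, adjusted p = 0.441). With an array left out, the unadjusted p stayed under 0.05 only without hyperthyroid replicate 2 or 5 or control replicate 7, and the log2 value of 0.27 was lowest, 0.20, without hyperthyroid replicate 1.

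Psmb7, which carries the trypsin-like site, had 3626 ± 426 in hyperthyroid and 3109 ± 202 in control muscle (SD, n = 4 each). Its lowest hyperthyroid array, 3214, lay under the highest control, 3282, and its log2 fold change was 0.22 ± 0.12 (SE, limma adjusted p = 0.561). Psmb6, of the caspase-like site, is represented only by a probe set that also carries another gene's symbol, and is not analysed here. Among the non-catalytic subunits, Psmb1, Psmb3 and Psmb4 had log2 fold changes of 0.13 ± 0.12, 0.13 ± 0.14 and 0.10 ± 0.15. Psmb2 was the one below 0, at -0.14 ± 0.16, with its highest array among the controls, 1669 on replicate 11, and its lowest, 941, on hyperthyroid replicate 2.

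Promoters from RefSeq (build GRCr8), running from 250 bases before to 50 after each gene's start, were matched to 40 of the 44 genes. Psma7, Psmd6, Psmd12 and Psmd14 had no entry. Nfe2l1, the transcription factor that raises proteasome genes when degradation is blocked, reads the antioxidant response element, whose core TGACNNNGC was searched on both strands. It was found in 7 of the 40 promoters (17.5%) and in 12.1% of all 33469. The box CCAAT was present in 20 of the 40 (50%) and in 37.5% of all. The window of Psmb5 is shown because Psmb5 was the gene whose groups did not overlap, and that of Psmd1, a base scaffold subunit whose log2 fold change was near 0, for comparison. Both lie upstream of the start with no other annotated gene across them, and the capitals mark the element core.
Psmb5: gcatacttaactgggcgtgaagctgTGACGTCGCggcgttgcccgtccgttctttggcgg
Psmd1: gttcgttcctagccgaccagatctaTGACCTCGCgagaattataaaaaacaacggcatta
The Psmb5 window is chr15:32047405-32047464 on the minus strand, with the core at -60 to -52 from the start. The Psmd1 window is chr9:94157781-94157840 on the plus strand, with the core at -165 to -157 and a further match starting at 23 after the start. The other members with a core are Psma3, Psmb2, Psmd3, Psmd9 and Psme4, whose log2 fold changes ran from -0.15 (Psma3) to 0.25 (Psme4), so that promoters with the core lay on both sides of 0.

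The immunoproteasome subunits gave wide intervals. None of the 3 catalytic members or the 2 subunits of the 11S activator reached an unadjusted p of 0.05, and their median log2 fold change was 0.05. Psmb8, which takes the place of Psmb5, was at 59.6, 79.95, 108 and 89.4 on hyperthyroid replicates 1, 2, 3 and 5 and at 66.3, 38.2, 110 and 142 on control replicates 7, 8, 9 and 11. The controls held both the lowest and the highest of the 8 arrays. The fold change was 1.03 with a 95% interval of 0.581 to 1.83. Psmb9, the counterpart of Psmb6, had 79.2 ± 11.9 against 89.7 ± 11.9 in controls, and Psmb10, the counterpart of Psmb7, had 163 ± 51.7 against 167 ± 23.7 (SD, n = 4 each). Hyperthyroid replicate 3 had the lowest Psmb10, 95.7, and replicate 5 the highest, 222.

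The 11S activator opens the core without ubiquitin or ATP. Its subunit genes Psme1 and Psme2 were both highest among controls on replicate 8, at 1425 and 1743. On control replicate 9 they were at 773 and 784. The hyperthyroid arrays lay within these bounds except for 1436 in Psme1 on replicate 3. Their log2 fold changes were 0.14 ± 0.19 and 0.16 ± 0.24 (SE, limma adjusted p = 0.832 and 0.863).

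The exchange of catalytic subunits was read as a log2 ratio within each array, which a single scaling factor for each array leaves unchanged and which shows only unequal change. Of the 3 planned pairs 2 could be formed. Psmb8 over Psmb5 averaged -5.42 ± 0.455 in hyperthyroid and -5.19 ± 0.866 in control muscle (SD, n = 4 each), a difference of -0.22 (exact permutation p = 0.657, adjusted p = 0.657). Psmb10 over Psmb7 averaged -4.50 ± 0.527 and -4.20 ± 0.222 (SD, n = 4 each), a difference of -0.31 (exact permutation p = 0.371, adjusted p = 0.657). The tests were two-sided over 70 assignments of arrays, with 0.0286 as the smallest p they can give. In both pairs the ranges of the groups overlapped. The first difference changed sign, to 0.07, without control replicate 11, the array with the highest Psmb8. The second went from -0.31 to -0.044 without hyperthyroid replicate 3, the array with the lowest Psmb10.

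**Figure D2:**
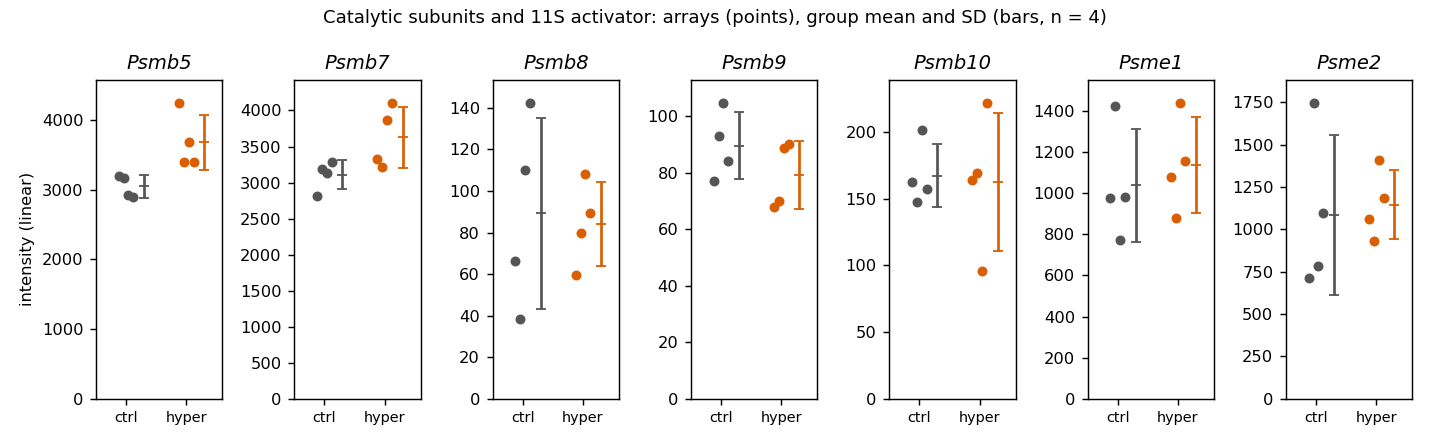
Intensity on each array (points, linear axis from 0, one panel per gene) with the mean and SD of 4 arrays beside them, for the constitutive catalytic subunits Psmb5 and Psmb7, the immunoproteasome subunits Psmb8, Psmb9 and Psmb10 and the 11S activator. Control and hyperthyroid points overlap in every panel except that of Psmb5.

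Genes of interferon response and antigen presentation, which share control with the immunoproteasome, had no called difference. Of the 12 measured, none reached an unadjusted p of 0.05, 7 lay above 0 and the median was 0.17, which turned to -0.11 without control replicate 9 and to -0.07 without hyperthyroid replicate 5. Mx1, an antiviral GTPase, was lower on all 4 hyperthyroid arrays (33.8 ± 12.3 against 65.7 ± 24.8, SD, n = 4 each, limma adjusted p = 0.486). It was the 1 gene of the 12 whose groups did not overlap, against 6.55% of all genes tested. Its signal was low, 15.4 on hyperthyroid replicate 2, where the filter on mean level stood at an intensity of 22.4. The core of the interferon-stimulated response element, GAAANNGAA, occurred on either strand in 3 of the 5 immunoproteasome promoters (Psmb8, Psmb10 and Psme2), in 9 of all 40 (22.5%) and in 9.71% of all promoters. Windows of Psmb10 and Psme2 are shown because they hold the interferon element, in capitals, upstream of genes with no called difference here.
Psmb10: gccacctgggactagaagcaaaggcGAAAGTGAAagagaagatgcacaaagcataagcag
Psme2: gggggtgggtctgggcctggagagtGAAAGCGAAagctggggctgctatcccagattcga
The Psmb10 window is chr19:50743331-50743390 and the Psme2 window chr15:33052770-33052829, both on the minus strand. The element starts at -73 in Psmb10, where further matches start at -67 and -17, and at -53 in Psme2.

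The base holds the 6 ATPases of the Psmc genes with the scaffold subunits Psmd1 and Psmd2 and the ubiquitin receptor Psmd4. Of these 9 genes, 5 lay above 0 and 4 below, with a median of 0.07 and none under an unadjusted p of 0.05. Leaving out hyperthyroid replicate 1 turned the median to -0.018, and leaving out control replicates 7 and 11 to -0.070. The ATPases of this ring pointed both ways. The ATPase Psmc5 had 2039, 1758, 1981 and 2136 on hyperthyroid replicates 1, 2, 3 and 5, and 1284, 1901, 1979 and 1228 on the controls. The low values were those of control replicates 7 and 11, while control replicates 8 and 9 lay within the hyperthyroid range. The log2 fold change was 0.34 ± 0.17 (SE, limma adjusted p = 0.506). The ATPase Psmc4 pointed the other way, at 886 ± 124 in hyperthyroid and 1091 ± 130 in control muscle (SD, n = 4 each). Its log2 value was -0.30 ± 0.15 (SE, limma adjusted p = 0.495).

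Psmc3, Psmd2 and Psmc1 had log2 fold changes of 0.25 ± 0.14, 0.24 ± 0.15 and 0.22 ± 0.15, and Psmd4 had 0.07 ± 0.17. Psmc2, Psmc6 and Psmd1 had -0.08 ± 0.14, -0.10 ± 0.15 and -0.03 ± 0.13. Most base genes split the controls in the same way. In 6 of the 9 genes (Psmc2, Psmc3, Psmc4, Psmc5, Psmd2 and Psmd4) control replicates 7 and 11, the arrays with high slow-fibre markers, were both below control replicates 8 and 9, as in 20.4% of all genes. This held for 5 of the 8 lid genes, for 1 of the 7 alpha genes and for 16 of all 44. It held for 1 of the 6 beta genes, 1 of the 5 immunoproteasome genes and 2 of the 9 assembly and regulator genes. The opposite split, with both above control replicates 8 and 9, was found in 3 of the 44 and in 22.3% of all genes. The part of slow-fibre content in these values was not tested.

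The lid strips the ubiquitin chain from the substrate. Of its 8 genes 6 lay above 0, with a median of 0.11, and none reached an unadjusted p of 0.05. Psmd6 had the highest value, with 2377, 1911, 2293 and 2414 on hyperthyroid and 1922, 2119, 1767 and 1841 on control arrays. Hyperthyroid replicate 2 was the one that lay within the control range. Its log2 fold change was 0.23 ± 0.12 (SE, limma adjusted p = 0.543). Psmd3 had the lowest, -0.09 ± 0.18. The brightest probe set of Psmd14, the deubiquitinase of the lid, gave 0.12 ± 0.14, and that of Psmd11 0.10 ± 0.13. Psmd7, Psmd8, Psmd12 and Psmd13 gave 0.17 ± 0.15, -0.04 ± 0.16, 0.10 ± 0.11 and 0.11 ± 0.16.

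Among the regulators, Psmf1 had the largest difference of all 44 genes. It encodes PI31, which inhibits the core particle in the test tube. Its intensities were 574, 353, 471 and 482 on hyperthyroid replicates 1, 2, 3 and 5 and 387, 373, 191 and 385 on the controls. Hyperthyroid replicate 2 lay below 3 of the 4 controls, and control replicate 9 stood far below the rest. The fold change was 1.44 with a 95% interval of 1.01 to 2.05 (limma unadjusted p = 0.0462, adjusted p = 0.464). Without control replicate 9 the log2 fold change fell from 0.52 to 0.28, and the unadjusted p was also no longer under 0.05 without hyperthyroid replicate 1, 3 or 5.

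Psme4 encodes PA200, an alternative cap that opens the core without ATP. Its arrays ran from 1454 to 2135 in hyperthyroid and from 1101 to 1884 in control muscle, with a log2 fold change of 0.25 ± 0.19. As in the base, control replicates 7 and 11 were low on this brightest probe set, at 1169 and 1101. The second probe set of Psme4 split the controls likewise, at 614 and 630 against 1078 and 1140 on control replicates 8 and 9. The dimmest did not, with control replicate 7 at 827 and control replicate 8 at 799. Psme3, of a nuclear activator, is carried only by probe sets that name several genes and is not analysed here. Of the chaperones that build the core, Psmg1 and Psmg4 had 0.20 ± 0.17 and 0.21 ± 0.26, and Psmg2 and Psmg3 had -0.10 ± 0.19 and 0.03 ± 0.19. Of those that build the base, Psmd10 had 0.20 ± 0.17, Psmd5 0.04 ± 0.18 and Psmd9 -0.10 ± 0.19. None of these 8 genes reached an unadjusted p of 0.05. Psmc3ip and Psme3ip1, outside the complex, had 0.15 ± 0.20 and -0.07 ± 0.15.

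The dimmer probe sets of some genes did not follow the first. Besides the brightest, 10 further probe sets of 7 of the genes passed the filter, and 8 of them lay above 0, with a median log2 fold change of 0.37. Of these 10, 5 had an unadjusted limma p under 0.05, all higher in the hyperthyroid group, against 9.68% of all 18625 probe sets kept (4.91% higher). Those of Psmd11 and Psmd14 were singled out after their values were seen. None of the 10 passed an adjusted p of 0.05 over all probe sets, which 0.0322% of all did.

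A base ATPase gave the clearest case. The second probe set of Psmc6 was at 1006, 1022, 1150 and 1129 on hyperthyroid replicates 1, 2, 3 and 5 and at 733, 630, 536 and 586 on the controls. The groups were well apart, and the fold change was 1.74, or 0.80 ± 0.14 in log2 (SE, limma unadjusted p = 7.29e-05, adjusted p = 0.101). Groups that do not overlap were found for 3 of the 10 further probe sets and for 6.15% of all. The dimmest of the Psmc6 probe sets had 239 ± 51.8 against 154 ± 38.7 (SD, n = 4 each), with 0.63 ± 0.24. The brightest probe set of the same gene had 2003 ± 290 against 2156 ± 342 (SD, n = 4 each), a value below 0. The value of 0.80 ranged from 0.73 to 0.88 under 18 other settings, added after seeing the data. It passed an adjusted p of 0.05 in 1 of them, with no filter on low signal (limma adjusted p = 0.0447), and the adjusted p otherwise ran up to 0.538.

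The second probe set of Psmd14 had 1228 ± 110 against 965 ± 92.5, and its dimmest 375 ± 140 against 234 ± 20.7 (SD, n = 4 each). That of Psmd11, a lid scaffold subunit, had 1186 ± 175 against 900 ± 41.7 (SD, n = 4 each). In log2 these were 0.35 ± 0.14, 0.60 ± 0.25 and 0.39 ± 0.14 (limma adjusted p = 0.45, 0.474 and 0.417). All hyperthyroid arrays lay above all controls for the second probe sets of Psmd14 and Psmd11. Signs also differed for Psmd7 (0.17 and -0.13 ± 0.19), Psmd9 (-0.10 and 0.39 ± 0.58) and Psme1 (0.14 and -1.18 ± 0.69). The second probe sets of Psmd9 and Psme1 have wide errors. The further probe sets of Psme4 gave 0.06 ± 0.15 and 0.09 ± 0.23. Where on each transcript these probe sets lie was not examined, and a gene's brightest probe set thus did not speak for all of them.

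**Figure D3:**
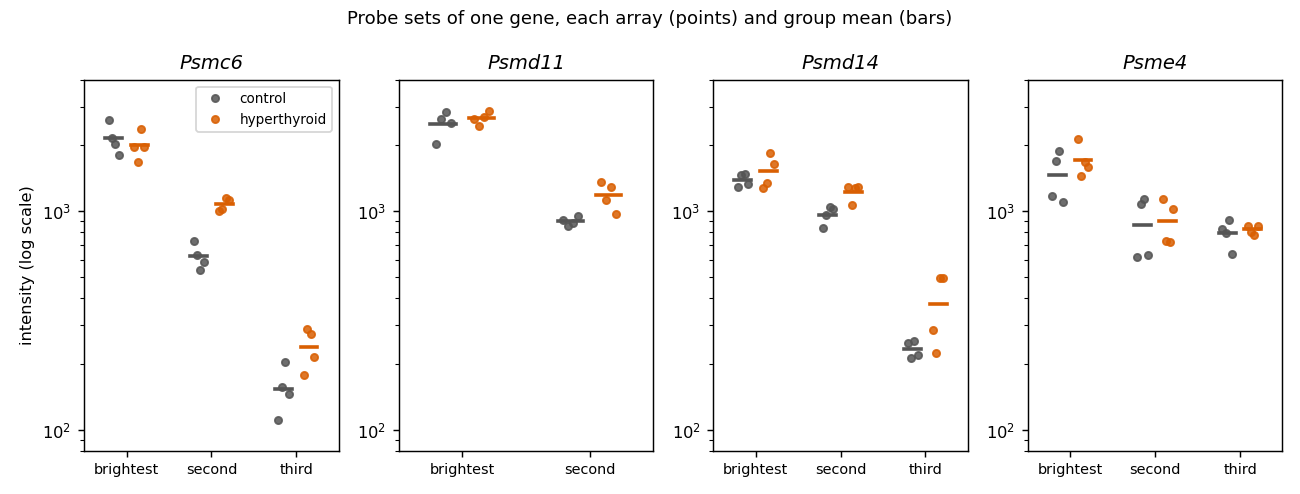
Intensity on each array (points, log axis) with the mean of each group (bars) for all kept probe sets of 4 genes, ordered by mean log2 signal. In Psmc6 the brightest probe set overlaps between groups while the second separates 536 to 733 in controls from 1006 to 1150 in hyperthyroid muscle; the 3 probe sets of Psme4 overlap throughout.

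Seen array by array, most members were high or low together on single arrays in both groups. Hyperthyroid replicates 1, 3 and 5 had 31, 33 and 33 of the 44 genes above their own 8-array mean. Hyperthyroid replicate 2 had 8. Among controls, replicates 8 and 9 had 31 and 29, and replicates 7 and 11 had 6 and 15. The mean deviation was -0.15 log2 units on hyperthyroid replicate 2 and -0.17 on control replicate 7, and between -0.03 and 0.10 on the other 6 arrays. Each group thus held an array low in all parts. The median log2 fold change of the 44 genes, 0.09 with all arrays, was 0.14 without hyperthyroid replicate 2 and 0.0031 without control replicate 7. It was 0.07 without control replicate 11, which was not low in all parts, and -0.05 without control replicates 7 and 11.

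**Figure D4:**
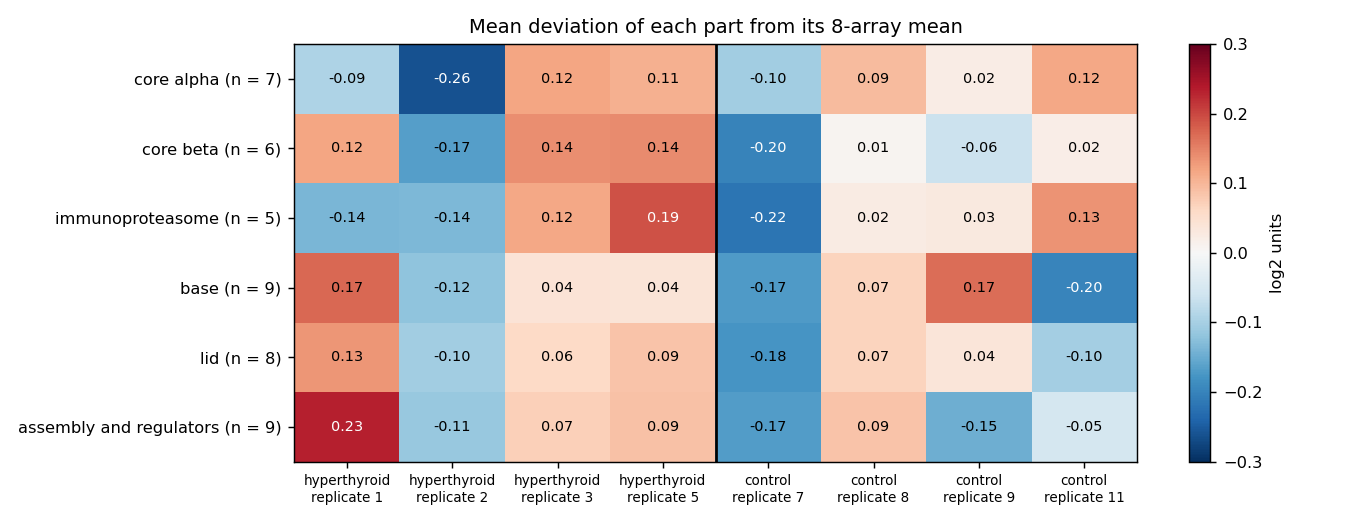
Mean deviation of each part of the proteasome from its own 8-array mean (numbers and colour, log2 units; n is the number of genes) on each array, hyperthyroid left of the line and control right of it. Hyperthyroid replicate 2 and control replicate 7 are below 0 in all 6 parts, and control replicate 11 is low in the base and high in the alpha ring.

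Array signal moved with the groups as well. The 100 brightest probe sets held 22.4 to 25.1% of all signal on hyperthyroid arrays, highest on replicate 2, and 26.4 to 28.4% on controls. The part of this difference in the proteasome values was not tested. With all arrays given the same distribution by quantile normalization, the median was 0.06 over the 44 genes and 0.02 over all genes. With each array centred on its median it was 0.14 over the 44 and 0.05 over all genes.

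Other genes that serve the proteasome were counted from a list of assembly, shuttling and regulatory factors. Of 22 measured, 13 lay above 0, with a median of 0.06, and none passed an adjusted p of 0.05. An unadjusted p under 0.05 was reached by 3 higher and 1 lower, where 10.6% of all genes reached it. Rad23b, which carries ubiquitinated proteins to the proteasome, had 2314, 1840, 2359 and 1883 on hyperthyroid replicates 1, 2, 3 and 5 and 1624, 1524, 1487 and 1241 on controls. Its groups did not overlap, and the log2 fold change was 0.51 ± 0.14 (SE, limma adjusted p = 0.239). Zfand5, which stimulates the proteasome in atrophying muscle, had 3697 ± 759 against 2796 ± 237, and Ube3c, a ligase bound to the proteasome, had 348 ± 28.0 against 264 ± 33.8 (SD, n = 4 each). Pomp, the chaperone that completes the core, was the one with an unadjusted p under 0.05 on the lower side, with 3610 ± 391 against 4349 ± 372 (SD, n = 4 each, limma adjusted p = 0.454). Groups that do not overlap were found for 4 of the 22, where 6.55% of all genes had them: Rad23b and Ube3c higher, and Usp14 (-0.21 ± 0.12) and Ubqln1 (-0.25 ± 0.14), a deubiquitinase and a shuttling factor, lower. Nfe2l1 itself had a log2 fold change of 0.14 ± 0.17.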

How the data were processed

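RNA of 8 tibialis anterior muscles was hybridised to 1 array each. The authors deposited linear signal intensities. Per the submitters' processing notes GCOS, the scanner maker's software, was used; for its version: not given in the sources used here. The mean without the lowest and highest 2% of values was 150 on every array, as after scaling to 1 target. Probe sets were named by the platform annotation, and all 46 members matched RefSeq identifiers. Values were taken as log2(intensity + 3.41), the 10th percentile; fold changes on this scale understate changes of low transcripts. Probe sets above the 40th percentile of mean log2 value (18625) were kept, and the brightest stood for each of 10200 genes. Testing was with limma 3.58.1 in R 4.3.3 (lmFit, eBayes with a variance trend), two-sided, Benjamini-Hochberg adjusted over all genes, and was checked on simulated data. Pair ratios were tested by exact permutation. The result for 1 further promoter element is not reported here. Genes named are all proteasome and other pathway genes with an unadjusted p under 0.05, the catalytic, regulatory and assembly members, the extremes of each part, and probe sets of opposite sign. Cell type markers with an unadjusted p under 0.05 were not all named. Members, lists and parts were chosen with earlier results of these data known. Alternatives were quantile normalization, median centring, a floor of 1.12, a pseudocount of 12.6, the mean of all probe sets, no filter on low signal, one at the 60th percentile, no trend, a robust variance, array weights, an adjusted p under 0.01, each array left out, and control replicates 7 and 11 left out.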

Additional observations from a re-analysis of the deposited data

Results flagged for a closer look

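Over 106 groups of 4 arrays, for single genes, pair ratios and part means, 5 held an array whose gap to the next was large for the range of its group; chance gives about 5%. Psmb1, a core beta subunit, was at 3291 on control replicate 7 and at 3690 to 3760 on the other controls. Psmf1, the inhibitor, was at 191 on control replicate 9 and at 373 to 387 on the other controls. The log2 ratio of Psmb10 over Psmb7 was -5.29 on hyperthyroid replicate 3 and -4.31 to -4.19 on the other hyperthyroid arrays. The mean deviation of all 44 proteasome genes was -0.15 on hyperthyroid replicate 2, against 0.08 to 0.10 on the others, and that of the core beta genes was -0.17 there, against 0.12 to 0.14.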

How the results depend on the processing

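No proteasome gene passed an adjusted p of 0.05 under any of the 19 alternatives, and none at 0.01; 19 of the 44 kept their direction in all of them. The count with an unadjusted p under 0.05, 2 in the main setting, was 4 with the mean of all probe sets (Psmb5, Psmc6, Psmd14 and Psmf1, all higher), 0 without the variance trend and 1 to 4 with an array left out. With quantile normalization the 2 were Psmb5 and Psmc4, the latter lower. The median of the base was 0.22 with the mean of all probe sets and -0.018 to 0.16 with an array left out, and that of the alpha ring -0.14 to 0.046. That of the immunoproteasome ran from -0.15 to 0.16 with an array left out. Without control replicates 7 and 11 the medians were -0.052 for all 44 genes, -0.045 for the lid, -0.070 for the base and -0.077 for assembly and regulators. The Psmb8 over Psmb5 difference ran from -0.57 (without control replicate 8) to 0.070 (without control replicate 11) and was 0.052 without control replicates 7 and 11, and that of Psmb10 over Psmb7 from -0.41 to -0.044 with an array left out; the cause was not tested. The ratio of Psmb9 over Psmb6 was not run, since Psmb6 has no probe set of its own. No paired analysis was possible because the groups share no replicate number. With 4 arrays a group, the intervals give the range of differences that the values allow, and no limit of detection was computed. Psmb8, near an intensity of 100, has the widest interval.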
